A study of Mus musculus with 16 samples.

Results

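Distal accessible regions are stretches of open chromatin that lie far from any gene start. Here they were taken as genomic intervals in which every one of 8 Multiome libraries of the mouse dentate gyrus (DG) had an ATAC peak, after overlapping peaks were merged, and which lay more than 20 kb from every transcription start site (TSS) in the deposited gene list. This gave 7997 distal regions among 25604 shared regions, or 31.2%. The rest were 12486 regions within 1 kb of a TSS and 5121 regions at 1 to 20 kb. Of the 124648 merged regions that some library lacked, 50.8% lay beyond 20 kb. The region nearest to the limit from inside lay 20008 bases from the TSS of *Olfml2b*, and the nearest from outside lay 19996 bases from that of *Kcna4*.

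The study asked how nuclear back-signaling by *Nrg1*, a membrane-bound growth factor whose intracellular domain can move to the nucleus, shapes subtypes of granule cells (GCs), the principal neurons of the DG. It compared wild-type mice (WT, labelled VV) with mice homozygous for a missense mutation in the transmembrane part of *Nrg1* (V321L, labelled LL), with 4 mice of each genotype, 2 females and 2 males. The DG was dissected, frozen and made into a nuclear suspension, and RNA and accessible chromatin were read from the same nuclei, with 1 library per mouse. Ages were not given in the sample labels, and neither RNA nor ATAC counts of *Nrg1* can check a point mutation. Mice are named below by genotype and by the number in the labels (F1, F2, M1 and M2), which only counts animals within a sex.

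Distal regions of this kind hold most enhancers, short elements bound by transcription factors that act on promoters over long distances, often by looping. Enhancers differ between cell types far more than promoters do, and a cell type's set of open enhancers is a large part of its identity. The assay uses a transposase that cuts where nucleosomes are missing, so the number of cuts in an interval reads how open it is, and not whether it acts on a gene.

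After filters and removal of doublets 16406 nuclei remained, between 1774 and 3633 per WT and between 1465 and 1987 per V321L library. Libraries differed in depth. The ATAC counts of a library ranged from 11953485 to 18352665 for WT mice and from 6580616 to 25552769 for V321L mice, and the called peaks ranged from 36556 in V321L M2 to 130470 in V321L M1, the deepest library, with a median of 11123 ATAC counts per nucleus. Total RNA UMIs did not overlap between genotypes, at 4326426 to 14624265 in WT and 15505354 to 23582057 in V321L. Nuclei were sorted into classes by marker genes in their RNA, which gave 6645 WT and 4039 V321L GCs. Few nuclei were sorted as glia in WT mice, with 134 WT against 589 V321L oligodendrocytes and 47 against 249 microglia. Class sums of fewer than 10 nuclei were therefore left out, except where the glial classes were added up per mouse. Sorting needs marker UMIs, so these counts can depend on RNA depth, and 1278 WT against 560 V321L nuclei joined no class. Pairs of libraries shared at most 13 barcodes, or 0.755% of the smaller library.

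The distal regions had a median width of 1028 bases (10th to 90th percentile 944 to 1177) and a median distance to the nearest TSS of 57.9 kb. Distances were long, with 4522 regions beyond 50 kb, 2394 beyond 100 kb and 188 beyond 500 kb, and the farthest lay 1697 kb away. They had 4795 different nearest genes, of which 3019 had a single distal region. The gene with the most was the unnamed transcript *Gm38839* with 13 regions, followed by *Fam135b* with 11. Among genes known in neurons, *Lrrtm1*, a synaptic adhesion protein, had 10, *Grin2a*, an NMDA receptor subunit, had 9, and *Epha7*, an ephrin receptor, had 8. In the RefSeq annotation of GRCm38.p6, which is mm10, 41.8% (3339 regions) overlapped the body of a protein-coding gene and 3917 overlapped no gene. Total counts per distal region over all nuclei lay between 78 and 9074 with a median of 1003, against a median of 2378 for regions within 1 kb of a TSS.

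The gene list in the files and RefSeq do not hold the same starts, and 126 distal regions overlapped a RefSeq start window of 300 bases (250 before to 50 after a start). These windows belonged mostly to long non-coding RNAs (101 regions), but 26 regions covered a start of a protein-coding gene that the deposited list places elsewhere. The starts of *Pdzd2*, *Tceal3* and *Gpm6a* are shown because their regions were called between GCs and glia, and that of *Zfp939* because its region was not. Each is the 250 bases before the RefSeq start on the gene's own strand in GRCm38.p6, and capitals mark matches on either strand to GGGCGG (the SP motif), GGNGGCAG (the core of the CTCF motif) or ACAATG (a SOX motif). The genes and windows were chosen after the values were seen.
Pdzd2, chr15:12739893-12740142, minus strand: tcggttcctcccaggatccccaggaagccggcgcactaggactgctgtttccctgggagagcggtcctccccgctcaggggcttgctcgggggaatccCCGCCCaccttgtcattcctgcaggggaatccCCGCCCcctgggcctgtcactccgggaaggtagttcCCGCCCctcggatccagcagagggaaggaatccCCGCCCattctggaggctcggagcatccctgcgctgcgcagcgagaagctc
Tceal3, chrX:136590592-136590841, plus strand: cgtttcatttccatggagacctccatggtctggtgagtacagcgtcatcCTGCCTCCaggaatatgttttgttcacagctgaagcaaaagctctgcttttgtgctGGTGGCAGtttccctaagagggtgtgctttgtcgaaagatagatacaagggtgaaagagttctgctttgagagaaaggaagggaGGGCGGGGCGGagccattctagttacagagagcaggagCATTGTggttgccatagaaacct
Gpm6a, chr8:54779184-54779433, plus strand: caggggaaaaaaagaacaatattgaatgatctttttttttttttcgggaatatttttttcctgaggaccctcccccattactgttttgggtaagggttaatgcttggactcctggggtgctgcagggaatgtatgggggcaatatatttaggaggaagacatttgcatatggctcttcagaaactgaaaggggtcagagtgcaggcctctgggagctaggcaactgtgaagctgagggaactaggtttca
Zfp939, chr7:39449261-39449510, plus strand: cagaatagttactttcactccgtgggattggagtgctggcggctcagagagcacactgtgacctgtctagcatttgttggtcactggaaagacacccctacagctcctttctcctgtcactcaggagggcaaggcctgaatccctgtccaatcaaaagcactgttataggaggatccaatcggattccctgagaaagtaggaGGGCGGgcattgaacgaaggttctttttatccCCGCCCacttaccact

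The *Pdzd2* window held 4 SP matches, the *Tceal3* window held 2 SP, 2 CTCF core and 1 SOX match, the *Zfp939* window held 2 SP matches and the *Gpm6a* window held none of the 9 motifs searched. The region at the inner start of *Pdzd2*, a scaffold protein with PDZ domains, had a median of 90.6 CPM (counts per 1000000 counts in shared regions) in GCs over 8 mice. It was 1.41 ± 0.195 (log2 fold change ± SE) higher in GCs than in glia (adjusted p = 5.7e-06, edgeR quasi-likelihood test with Benjamini-Hochberg adjustment, as for every adjusted p of a region or gene below). The *Tceal3* region was 2.44 ± 0.596 higher in GCs. The *Gpm6a* region went the other way, with a median of 7.06 CPM in GCs and 57.6 CPM in astrocytes and a log2 fold change against glia of -1.28 ± 0.518 (adjusted p = 0.0357). The *Zfp939* region had medians of 51.9 CPM in GCs and 51.5 CPM in astrocytes and a log2 fold change of 0.056 ± 0.198 (adjusted p = 0.821).

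Over the 105 start windows that lay whole inside a distal region, the NeuroD E-box (CAGATG) was found in 26.7%, against 17.2% of all 32851 RefSeq start windows. The CTCF core was found in 19.0% against 12.6%, the NFI motif (TTGGCA) in 18.1% against 14.1%, and the SOX motif in 13.3% against 12.6%. The AP-1 motif (TGANTCA) was found in 9.52% against 7.81% and the PU.1 motif (GAGGAAGT) in 2.86% against 3.20%. The SP motif was found in 28.6% against 35.7%. The MEF2 motif (TATTTATA) and the CRE (TGACGTCA) were found in none of the 105 windows, against 1.70% and 1.79% of all windows. Both strands were searched, and the median GC content was 52.3% in these windows and 52.7% in all.

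A further 9 distal regions overlapped a microRNA hairpin. MicroRNAs are short RNAs that pair with messages through their seed, bases 2 to 8, which is in capitals below. The 5′ arms of the *Mir344* hairpins are shown because they share a seed and their regions were all higher in GCs, and let-7i because its region went the other way.
mmu-miR-344d-1-5p: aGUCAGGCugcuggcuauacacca
mmu-miR-344d-3-5p: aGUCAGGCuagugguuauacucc
mmu-miR-344b-5p: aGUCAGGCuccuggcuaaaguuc
mmu-let-7i-5p: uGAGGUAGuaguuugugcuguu

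The *Mir344* regions lay on chromosome 7, 38.3 to 102 kb from the nearest listed TSS. All had higher ATAC signal in GCs than in glia, by 3.61 ± 0.746 at *Mir344d-1*, 3.20 ± 0.629 at *Mir344d-3* and 5.05 ± 0.865 at *Mir344b*. Median levels in GCs were 17.9, 18.7 and 20.7 CPM, and the median in each of the 4 glial classes was 0 at all 3 regions. The *Mir344d-1* region had a median of 2.12 CPM in other excitatory neurons, where the *Mir344b* region had 17.1 CPM. The let-7i region, 89.4 kb from *Mon2*, was open in every class, with medians of 61.0 CPM in GCs, 140 CPM in astrocytes and 143 CPM in microglia, and it was lower in GCs than in glia by -1.02 ± 0.157 (adjusted p = 1.72e-05).

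The first question was how far distal chromatin differs between the classes of the DG. The share of ATAC counts in distal regions was highest in GCs, with a median of 20.4% over 8 mice (19.2 to 21.2%). Other excitatory neurons had 19.7% (13.1 to 20.4%), with V321L M1 lowest at 13.1% and V321L F2 next at 17.0%. GABAergic neurons had 11.7% (9.32 to 12.3%). All glia were lower still, with medians of 8.60% in astrocytes (7 mice), 8.26% in oligodendrocytes (8 mice), 8.95% in oligodendrocyte precursors (OPCs, 6 mice) and 5.47% in microglia (7 mice). The mice of GCs and microglia did not overlap, nor did those of GCs and GABAergic neurons.

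**Figure D1:**
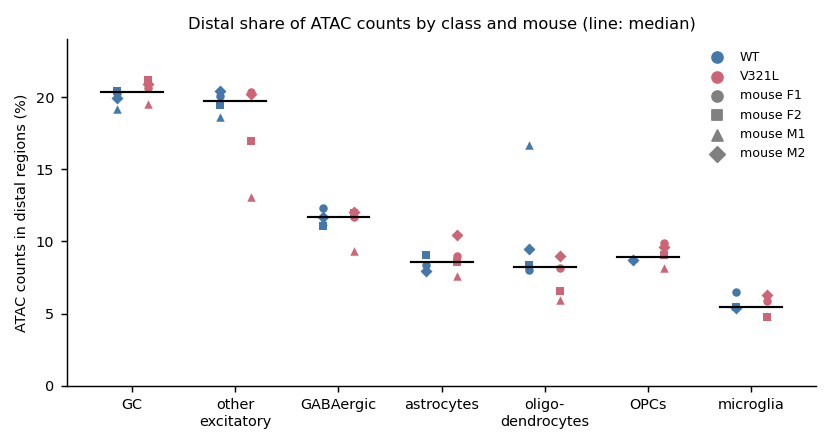
Percent of ATAC counts in shared regions that fell in distal regions, by class (x axis), with 1 point per mouse, coloured by genotype, and a line at the median. GCs lie between 19.2 and 21.2% and microglia between 4.76 and 6.48%, and a single oligodendrocyte sum (WT M1, 16.7%) stands apart from its class.

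Within mice, the distal share of GCs exceeded that of GABAergic neurons by 8.82 points ± 0.799 (SD, n = 8 mice), of astrocytes by 11.7 ± 0.666 (n = 7), of oligodendrocytes by 11.2 ± 3.74 (n = 8), of OPCs by 11.2 ± 0.601 (n = 6) and of microglia by 14.8 ± 0.791 (n = 7). GCs were higher in every mouse for these 5 classes (two-sided exact sign-flip test, adjusted over 6 classes, p = 0.0234 for all but OPCs, where p = 0.0312 was the smallest that 6 mice allow). Against other excitatory neurons the difference was 1.62 points ± 2.40 (n = 8), with GCs higher in 7 of 8 mice (exact sign-flip test, adjusted p = 0.0312). That call was lost when any mouse but WT F1 or WT M2 was left out, with differences of 0.931 to 1.93 points over all 8 omissions and exact adjusted p up to 0.0625. The oligodendrocyte sum of WT M1 held only 14 nuclei and a share of 16.7%, and without that mouse the difference from oligodendrocytes was 12.5 points.

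The classes had unequal parts in defining the regions. Peaks were called on all nuclei of a library, and GCs gave 77.0% of the counts of all classes, so that a region open in GCs was likelier to be called, and to be called in every library, than one open in a rare class. How much of the excess in GCs this accounts for was not tested.

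Of the 7997 distal regions, 1081 passed edgeR's filter on low counts in the fit over 7 classes with the mouse as a block. Among these, 577 were higher in GCs than in the mean of the 4 glial classes and 61 were lower (adjusted p under 0.05 and a log2 fold change of at least 1). Over all 11976 regions tested, 19.3% were higher and 3.44% lower, against 53.4% and 5.64% of the distal regions tested. The median log2 fold change was 1.36 for distal regions and 0.23 for all. The filter removed most distal regions, and the count moved widely with it. It asks for enough counts in as few sums as the smallest class has. A region could thus pass only through the class where it is high, so the counts of this fit are not independent of the filter. Without a filter 6891 distal regions were higher and 73 lower, where 53.1% and 1.9% of all regions were. Leaving out V321L M1, the deepest library, gave 124 filtered regions higher and 45 lower of 444 tested. Leaving out WT M2 or V321L M2 gave 1217 of 1925 or 1213 of 1902 higher.

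A sum of the 4 glial classes per mouse was an alternative added after the data were seen. It took in all glial nuclei, also class sums under 10 nuclei, such as the 9 astrocytes and 2 microglia of WT M1. This fit kept 7853 distal regions. Of these 5818 (74.1%) were higher in GCs and 279 (3.55%) lower, against 42.1% and 5.85% of all 25388 regions tested. The median log2 fold change against summed glia was 2.93 for distal regions, 1.53 at 1 to 20 kb and -0.18 within 1 kb of a TSS. In 154 distal regions the summed glia had no count at all. A region could pass the filter of this fit through GCs alone, so its counts are not independent of the filter either. This fit was used for the values against glia given for single regions, and leaving out any mouse kept it between 5581 and 5927 higher and between 249 and 286 lower. WT mice alone, with few nuclei sorted as glia, gave 3217 higher and 168 lower.

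The share of regions higher in GCs was larger at each longer distance from the gene. At 20 to 50 kb from the nearest TSS 66.1% of 3426 tested regions were higher in GCs than in summed glia, at 50 to 100 kb 74.6% of 2094, at 100 to 200 kb 81.9% of 1287, at 200 to 500 kb 88.6% of 865 and at 500 to 2000 kb 93.4% of 181. The median log2 fold change went from 2.36 in the nearest to 4.12 in the farthest class. Counts per region went down along the same axis, from a median of 1054 to 836, and the nearest class was already far from the 16.9% of regions within 1 kb of a TSS. All regions had to be called in every library from pooled nuclei, where GCs gave 77.0% of the class counts. These shares are thus not independent of that selection, and its part in the trend was not tested. Of regions over a protein-coding gene body 75.4% were higher, and of regions over no gene 74.5%.

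**Figure D2:**
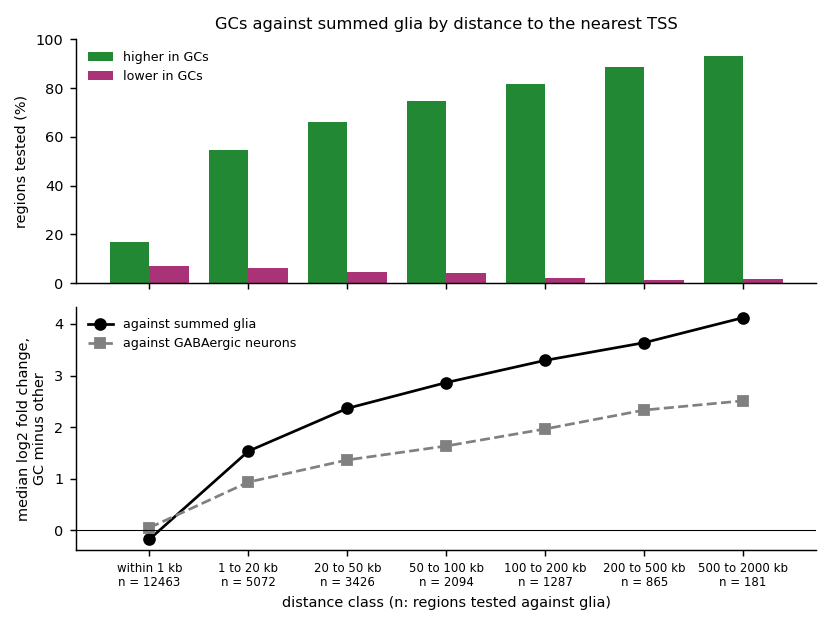
Upper plot, percent of regions tested that were higher or lower in GCs than in summed glia, by distance to the nearest TSS. Lower plot, median log2 fold change of GCs against summed glia and against GABAergic neurons in the same distance classes, which goes from -0.18 within 1 kb to 4.12 at 500 to 2000 kb against glia.

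Regions that hold other starts or small RNA genes gave lower shares than the 74.1% of all distal regions that were higher in GCs than in summed glia (42.1% of all regions). Of the 26 at a RefSeq start of a protein-coding gene, 5 were higher in GCs than in glia and 1 lower, with a median of 0.29. Of the 20 regions over tRNA genes, 19 were tested, 7 were higher and 0 lower, with a median of 0.44. Against GABAergic neurons 0 of the 20 were higher and 2 lower, where 53.9% and 1.40% of all distal regions and 29.3% and 1.68% of all regions were. Of the 101 at starts of long non-coding RNAs, 57 of 100 tested were higher and 8 lower.

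GCs also differed from GABAergic neurons, a neuronal class of the same tissue. In the filtered fit 319 distal regions were higher in GCs and 63 lower, where 6.78% and 2.74% of all regions were. Without V321L M1 the counts were 49 and 35 of 444 tested. Without WT M2 or V321L M2, 631 of 1925 or 682 of 1902 were higher. A paired fit with no filter, also added after the data were seen, gave 4311 of 7997 higher and 112 lower, where 29.3% and 1.68% of all regions were. Its median log2 fold change was 1.68 for distal regions and 0.047 for regions within 1 kb of a TSS. In 359 distal regions GABAergic neurons had no count, and with these set to a floor of 3 counts the median was 1.66.

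Each class was then set against the mean of the other classes in the filtered fit, which does not ask that a region be closed elsewhere. In this comparison 524 of 1081 distal regions were higher in GCs, where 15.1% of all regions were. These 1081 could have passed the filter only through the class where they are high, so the counts describe the regions kept. The counts were 498 in other excitatory neurons (15.0% of all regions), 233 in GABAergic neurons (9.27%), 268 in astrocytes (9.01%), 194 in oligodendrocytes (6.59%), 178 in OPCs (4.98%) and 87 in microglia (4.26%). Fewer had an average of at least 3 in log2 CPM and were also higher than the mean of the others in every mouse that had the class. They numbered 382 of the 524 for GCs, 216 of 498 for other excitatory neurons, 36 of 233 for GABAergic neurons, 165 of 268 for astrocytes, 63 of 194 for oligodendrocytes, 24 of 178 for OPCs and 24 of 87 for microglia. The same count was not made over all regions, so these numbers are not read as a trait of distal regions. The 3 regions with the largest log2 fold change per class, among those higher in every mouse, are described next and were chosen for that size.

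The region with the largest contrast for GCs, chr1:142042327-142043363, lay in a gene desert 1386 kb from the nearest listed TSS (*4930590L20Rik*), with the protein-coding *B3galt2* 1597 kb away. Its level in GCs lay between 68.1 and 97.4 CPM with a median of 84.5 over 8 mice. Other excitatory neurons had 7.04 to 71.7 CPM, and every sum of GABAergic neurons, astrocytes, OPCs and microglia was at 0. The one glial value above 0 was 48.3 CPM in the oligodendrocytes of WT M2. The fitted log2 fold change against the other classes was 7.15 ± 0.444 (adjusted p = 6.04e-42), a value that depends on the prior count where sums are 0.

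At chr16:8993290-8994243, 48.4 kb from *Gm30371*, GCs had 66.2 to 81.0 CPM and other excitatory neurons 28.9 to 71.3 CPM, and all sums of astrocytes, OPCs and microglia were at 0. The third region separated GCs from the other excitatory neurons. It lay at chr15:12728066-12729103 inside *Pdzd2*, downstream of the start window shown above, and had 56.0 to 102 CPM in GCs with a median of 78.5. Other excitatory neurons had 0 to 9.74 CPM, so the mice of these classes did not overlap. RNA of *Pdzd2* was 4.09 higher in GCs than in the mean of the other classes on the log2 scale (adjusted p = 5.02e-23).

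In other excitatory neurons, a class of CA1, CA3, mossy and cortical cells, the leading regions lay near *Art2b*, *Gm39075* and *Raver2*. At chr4:101026376-101027315, 41.7 kb from *Raver2*, an RNA-binding protein, this class had 38.7 to 103 CPM and GCs had 14.7 to 24.3 CPM, without overlap. RNA of *Raver2* was 3.82 higher there than in the mean of the other classes (adjusted p = 8.55e-20). The medians of the other 2 were 77.8 CPM (*Art2b*) and 67.0 CPM (*Gm39075*). None of the 3 regions was closed in GCs, where medians were 32.5, 39.3 and 17.7 CPM.

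The GABAergic regions showed smaller contrasts. The region chr9:36984946-36985923 inside *Pknox2*, a homeodomain transcription factor, had a median of 66.1 CPM in GABAergic neurons, 54.7 CPM in other excitatory neurons and 42.1 CPM in GCs, and its ranges overlapped between these neurons. GABAergic neurons were below GCs in V321L F2 (34.7 against 50.1 CPM) and V321L M2 (28.2 against 31.8 CPM). RNA of *Pknox2* was 3.47 higher in GABAergic neurons than in the mean of the other classes. At chr1:79581017-79582042 GABAergic neurons had 61.3 to 109 CPM and GCs 17.2 to 37.4 CPM, without overlap. The nearest gene there is *Ap1s3*, a clathrin adaptor subunit, and *Scg2*, a neuropeptide precursor of the SGC-enriched list, lies 140.9 kb away. At chr11:49818466-49819556, in *Gfpt2*, GABAergic neurons had 28.3 to 144 CPM and GCs 9.94 to 21.8 CPM, and other excitatory neurons were above GABAergic neurons in V321L M1 (85.2 against 72.4 CPM).

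Astrocytes had the region with the largest fitted contrast among those named, 8.07 ± 0.456. At chr2:110134655-110135725 inside *Ccdc34*, astrocytes had 141 to 234 CPM with a median of 210 over 7 mice, and GCs had at most 4.55 CPM. At chr8:54791862-54792948 inside *Gpm6a*, a membrane glycoprotein, astrocytes had a median of 215 CPM and GCs 2.02 CPM. RNA of *Gpm6a* was 2.41 higher in astrocytes than in the mean of the other classes, and RNA of *Wdr17*, whose TSS was the nearest at 67.4 kb, was 5.21 higher. The third region, 178 kb from *Tprg*, had 139 to 263 CPM in astrocytes and at most 3.72 CPM in GCs, but reached 94.5 CPM in the OPCs of WT M1. The *Gpm6a* region lies downstream of the *Gpm6a* start window shown above, whose region also had its highest median in astrocytes.

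Oligodendrocytes were led by a region inside *Nkain1*, which encodes a partner of the sodium pump, with a median of 135 CPM and 27.4 to 194 CPM over 8 mice. GCs had 8.33 to 17.4 CPM there, and *Nkain1* RNA was 5.34 higher in oligodendrocytes. Other excitatory neurons had 10.8 to 49.2 CPM at this region and were above oligodendrocytes in WT M1 (46.7 against 27.4 CPM). The second region, chr1:190279908-190280895, lay 109.2 kb from *Prox1*, the homeodomain factor that marks GCs. Oligodendrocytes had 43.3 to 246 CPM with a median of 139, against 19.4 to 39.0 CPM in GCs and 0 to 14.3 CPM in other excitatory neurons. The OPC sums were at 0 to 36.7 CPM and those of microglia at 0. RNA of *Prox1* was 2.51 higher in oligodendrocytes than in the mean of the other classes (adjusted p = 5.56e-15). It was found in 18.4% of oligodendrocytes, 43.5% of GCs and at most 13.1% of the nuclei of any other class. *Prox1* was 1 of the genes used to sort GCs, so its RNA is no independent test of GCs against other classes. The third region, chr6:84134507-84135557 inside *Dysf*, a protein of membrane repair, had 74.0 to 260 CPM in oligodendrocytes and 20.7 to 36.9 CPM in GCs.

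OPCs were led by chr16:91305163-91306278, a region 35.4 kb from *Olig1* and 79.7 kb from *Olig2*, the bHLH factors of the oligodendrocyte lineage. OPCs had 75.3 to 529 CPM with a median of 340 (6 mice), and oligodendrocytes had 54.9 to 217 CPM with a median of 195, while GCs had at most 4.96 CPM. Oligodendrocytes were above OPCs in V321L F1 (199 against 147 CPM) and V321L M2 (182 against 75.3 CPM). *Olig1* was among the OPC sorting markers. At chr19:21741834-21742890, 35.5 kb from *Cemip2*, OPCs had 94.5 to 202 CPM and GCs 16.6 to 34.9 CPM, and the oligodendrocytes of WT M1 had 82.3 CPM. The region chr3:35340566-35341808 was open in both OPCs and astrocytes, with medians of 184 and 148 CPM against 1.57 CPM in GCs.

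Microglial regions lay inside *Cadm1* and *Tbc1d5* and 30.2 kb from *Pik3r4*, a subunit of the phosphoinositide kinase of autophagy. At chr9:47733558-47734628 microglia had 32.3 to 250 CPM with a median of 165 and GCs 15.8 to 27.7 CPM, without overlap. RNA of *Cadm1*, an adhesion molecule, had a log2 fold change of -0.35 in microglia (adjusted p = 0.161). At chr17:50763130-50764126 microglia had a median of 132 CPM, and RNA of the nearest gene *Plcl2* was 3.52 higher in microglia. Other excitatory neurons had a median of 43.9 CPM there and were above microglia in V321L F1 (35.8 against 26.8 CPM). The third had 52.0 to 219 CPM in microglia and 8.06 to 15.3 CPM in GCs. Other excitatory neurons had 0 to 58.4 CPM there, with a median of 33.7, which overlapped microglia.

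**Figure D3:**
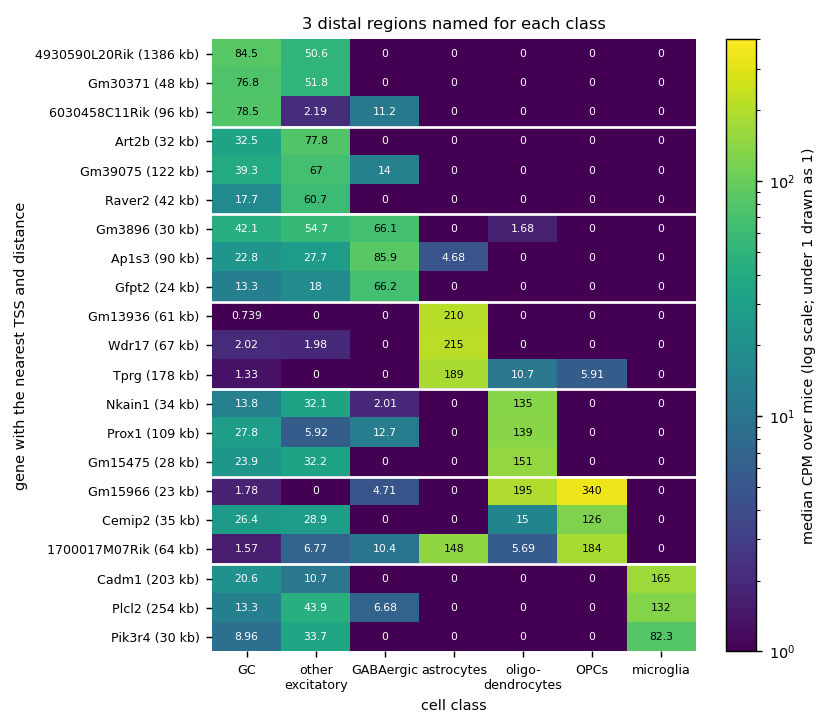
Median CPM over mice of the 3 distal regions with the largest log2 fold change for each class (rows, labelled by the gene with the nearest TSS and its distance) in the 7 classes (columns), with colour on a log scale. Astrocyte regions reach 189 to 215 CPM in astrocytes with GCs at 0.739 to 2.02 CPM, and the regions named for excitatory neurons lie between 17.7 and 39.3 CPM in GCs.

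Genes known for GC identity were looked at next. Of 24 genes on that list, 12 were nearest to a distal region, with 26 regions in all. Among these genes *Prox1*, *Calb1*, *C1ql2* and *Rfx3* were also used to sort GCs, so their regions are not independent of the sorting. Against summed glia 19 of the 26 were higher and 1 lower, with a median of 1.91, and against GABAergic neurons 17 were higher and none lower, with a median of 1.87. Over all distal regions 74.1% were higher than in glia and 53.9% higher than in GABAergic neurons, with medians of 2.93 and 1.68, so the count against glia was near the share of any distal region.

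*Calb1*, the calcium-buffering protein of mature GCs, had 3 regions at 110, 272 and 284 kb. The nearest, chr4:15769798-15770794, had 1289 counts in GCs and none in glia, so it was at least 52.5-fold higher in GCs (against a floor of 3 counts over the summed glia). The region at 272 kb had 1502 counts in GCs and 2 in glia. Single regions of *C1ql2*, a secreted synaptic protein, *Etv1*, *Rfx3*, *Bhlhe22* and *Neurod1*, transcription factors of neuronal differentiation, were also higher in GCs than in glia, by 3.91, 5.76, 4.93, 3.96 and 1.18.

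*Prox1* showed that regions of 1 gene can go apart. Regions at 42.2 and 103.9 kb were higher in GCs than in summed glia by 2.11 and 3.07, while that at 109.2 kb, the oligodendrocyte region above, had a log2 fold change of -0.91. At 103.9 kb the pooled level was 33.6 CPM in GCs and 7.24 CPM in oligodendrocytes, and at 109.2 kb it was 27.4 and 142 CPM. The nuclear factor genes were also mixed. *Nfia* had 3 of 5 regions higher in GCs, and *Nfib* had 2 regions higher and 1 (57.3 kb, -1.57 against glia) lower. *Bcl11b* had 2 of 3 higher, and *Zbtb20* had 1 of 3.

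The SGC-enriched list is named for semilunar granule cells (SGCs), a rarer GC subtype that the study is about. It includes genes the study picked from these libraries. It also holds *Camk4*, which the study used to mark younger GCs, and *Ntng1*, its marker of later GC maturation. *Camk4* was nearest to no distal region, and *Ntng1* to those at 203, 211 and 232 kb. The list is no independent evidence of direction, and not all its values are those of SGC markers. Of its 16 genes 9 had 21 distal regions, of which 19 were tested, 17 were higher in GCs than in glia and none lower, with a median of 3.42, beside 74.1% and 2.93 over all distal regions and 42.1% over all regions. *Nptx2*, a secreted pentraxin of excitatory synapses, had 4 regions between 38.9 and 101 kb. That at 48.5 kb had no count in summed glia or GABAergic neurons and was at least 19.7-fold higher in GCs than in glia. *Bdnf*, the neurotrophin of mossy fibres, had 1 region at 61.1 kb with 724 counts in GCs, 5 in glia and none in GABAergic neurons, and other excitatory neurons had 0.4 CPM against 20.6 CPM in GCs. The untested members, 1 of *Nectin3* and 1 of *Grm8*, had low counts in GCs (43 and 252) and higher levels in other excitatory neurons (37.4 and 29.8 CPM).

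The *Nrg1* pathway had 4 distal regions, and *Nrg1* itself was nearest to none. The neuregulins *Nrg2* (1 region) and *Nrg3* (2 regions) were higher in GCs than in glia by 3.47, 4.64 and 2.36. The region of *Erbb4*, the neuregulin receptor, had a log2 fold change of 0.48 (adjusted p = 0.47), and levels of 9.37 CPM in GCs and 24.7 CPM in GABAergic neurons. *Erbb4* was among the markers used to sort GABAergic neurons. None of the 4 was called between GCs and GABAergic neurons, where 53.9% of all distal regions and 29.3% of all regions were higher in GCs.

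The lists for other lineages held few distal regions. Of 14 glial regulators only *Sall1* (3 regions) and *Irf8* (1) had any. Of these 4 regions, 2 were higher in GCs than in glia, where 74.1% of all distal regions and 42.1% of all regions were. The *Sall1* region at 352 kb was at 81.4 CPM in microglia, 19.8 CPM in GCs and at most 1.46 CPM in the other glia, and the *Irf8* region was at 47.9 CPM in microglia against 11.7 CPM in GCs. *Sall1* and *Irf8* are factors that microglia need. The other *Sall1* regions, at 176 and 470 kb, went the other way, with microglia at 4.79 CPM or less, and were the 2 higher in GCs than in glia, by 2.67 and 3.66. Among GABAergic regulators, *Dlx2*, a homeodomain factor of interneurons, had 1 region at 51.5 kb, with a log2 fold change of 0.47 against glia (adjusted p = 0.297) and 69.4 CPM in microglia against 27.3 CPM in GCs.

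RNA of the nearest genes, which played no part in choosing the regions, was compared by class. Over all 6229 genes tested, 22.5% had higher and 11.3% lower RNA in GCs than in glia, with a median log2 fold change of 0.20. Among the 1189 tested genes nearest to a distal region that was higher in GCs, 47.7% were higher and 8.33% lower, with a median of 0.92. Among the 93 nearest to a region that was lower in GCs, 11.8% were higher and 23.7% lower, with a median of -0.17. The 528 genes whose regions were in neither set had 28.4% higher and 12.3% lower. Genes whose body covered the region gave 49.5% higher for regions higher in GCs. Genes and regions came from the same nuclei, so depth per nucleus is shared between both readouts, and a gene with regions in several sets counted in each. Marker genes used to sort nuclei were not taken out.

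**Figure D4:**
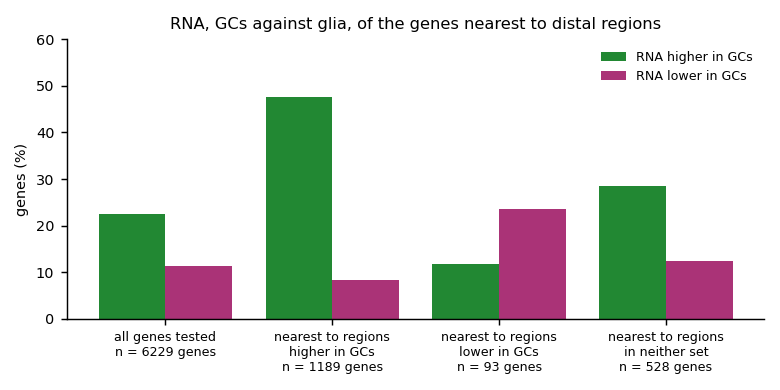
Percent of genes with higher and lower RNA in GCs than in glia, for all genes tested and for genes nearest to distal regions that were higher, lower or neither in GCs than in summed glia. The share of genes with higher RNA is 47.7% beside regions higher in GCs, 11.8% beside regions lower in GCs and 22.5% over all genes.

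The second question was whether distal chromatin of GCs differs between V321L and WT mice. Genotype went with RNA depth, at median UMIs per nucleus of 1096 to 1923 in WT and 2680 to 4146 in V321L libraries. GCs were sorted by their RNA, so genotype cannot be told apart from that difference between libraries. Each GC was thinned to 1000 ATAC counts in shared regions, which left 1101 to 1661 GCs per WT and 779 to 1118 per V321L mouse. At this depth the distal share of counts was 20.2, 20.4, 19.1 and 19.9% in WT F1, F2, M1 and M2, and 20.6, 21.1, 19.3 and 20.9% in the V321L mice in the same order. The mice of both genotypes overlapped, and M1 was lowest in each. The means were 19.9% ± 0.59 in WT and 20.5% ± 0.81 in V321L (SD, n = 4 mice each), a difference of 0.56 points (two-sided exact permutation test, p = 0.286, where the smallest possible p is 0.0286). Single mice moved it, to 0.288 without WT M1 (exact permutation p = 0.6), 0.362 without V321L F2 (p = 0.486) and 0.954 without V321L M1 (p = 0.0571).

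Region by region, 7539 distal regions were tested, among 24696 in all. With edgeR 1 distal region was higher and 1 lower in V321L GCs at an adjusted p under 0.05, and these were the only regions of any distance called (0.00405% in each direction). At an unadjusted p under 0.05 there were 511 distal regions (6.78%), 302 higher and 209 lower, where 7.11% of all regions were. The median log2 fold change of distal regions was 0.029, and 91.0% lay within 0.5 of 0. The median SE was 0.26, so most differences of the size seen here could not be told from the spread between mice.

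The region lower in V321L GCs was chr1:24612329-24613388, over the pseudogene *Gm10222* and 24.9 kb from the collagen gene *Col19a1*. WT GCs had 140, 160, 140 and 203 CPM (F1, F2, M1, M2) and V321L GCs had 34.6, 8.88, 10.3 and 10.2 CPM. The groups lay far apart, with V321L F1 above the other V321L mice. The log2 fold change was -3.31 ± 0.205 (adjusted p = 2.21e-23). The same region was lower in V321L mice in other excitatory neurons (-3.20 ± 0.417), GABAergic neurons (-4.88 ± 0.757), astrocytes (-3.99 ± 0.402) and oligodendrocytes (-5.30 ± 0.736). The fits in these classes used all counts, with no thinning to equal depth. In the last 3 classes it was the only region of any distance called, among 4597, 4870 and 3033 tested (95, 230 and 93 distal).

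This interval of chromosome 1 is known to hold a nuclear copy of mitochondrial DNA, so reads from mitochondria and from the nuclear copy can be exchanged there, and its count is uncertain for that reason. RNA of the 13 mitochondrial genes made up 0.186 to 0.282% of GC UMIs in WT and 0.415 to 1.17% in V321L mice, without overlap. This is a share of RNA in filtered nuclei and does not measure mitochondrial DNA among the ATAC reads. The part of mitochondrial reads in the difference at the region was not tested.

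The region higher in V321L GCs was chr1:195241108-195242176, 64.4 kb from *Cr2*, a complement receptor of B cells, and over no gene. WT GCs had 86.3, 84.7, 124 and 91.7 CPM and V321L GCs had 174, 124, 180 and 181 CPM in the order F1, F2, M1, M2. The genotypes did not overlap, but WT M1 at 123.7 CPM and V321L F2 at 124.3 CPM almost met. The log2 fold change was 0.77 ± 0.142 (adjusted p = 0.00727). In the fits with no thinning, it was not called in other excitatory neurons (0.44 ± 0.224, adjusted p = 0.636), GABAergic neurons (0.39 ± 0.373, adjusted p = 0.998) or astrocytes (0.54 ± 0.361, adjusted p = 0.935), and in oligodendrocytes it did not pass the filter. In oligodendrocytes it had means of 85.7 CPM in WT and 68.6 CPM in V321L mice, with overlap, and the WT sums held 14 to 48 nuclei. In OPCs, which were not tested, it was at 106 and 189 CPM in 2 WT mice and at 54.7 to 75.3 CPM in 4 V321L mice, the opposite order to GCs. Those WT OPC sums held only 10 and 11 nuclei, with 18912 and 21153 counts in shared regions, so that order rests on few cuts. Without WT F1, WT F2, WT M2 or V321L M2 in turn, no distal region was called higher.

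**Figure D5:**
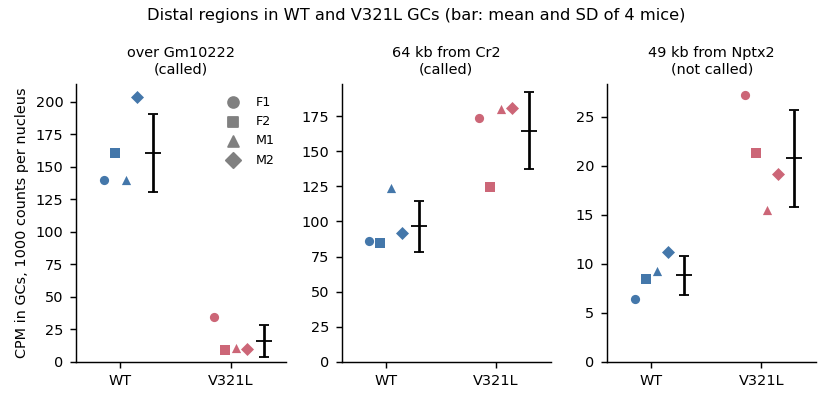
CPM in GCs thinned to 1000 ATAC counts per nucleus, with 1 point per mouse and bars for mean and SD of 4 mice, at the called regions over *Gm10222* and near *Cr2* and at the region 48.5 kb from *Nptx2*, which was not called. V321L mice lie at 8.88 to 34.6 CPM against 140 to 203 CPM in WT at the first.

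The region near *Cr2* was 1 of the 5 distal regions with the most counts over all nuclei (7010 counts). The others were chr11:109011269-109012361 (9074 counts), chr19:61266287-61267361 (8529), chr1:86487102-86488054 (7213) and chr3:5860210-5861120 (6301). Pooled levels in GCs were 117 to 168 CPM. In microglia 4 of the 5 reached 943, 902, 594 and 510 CPM, and chr1:86487102-86488054 had 208 CPM. The region near *Cr2* had 594 CPM in microglia, and its microglial values lay between 125 and 987 CPM in WT and between 455 and 763 CPM in V321L mice. More nuclei were sorted as microglia in V321L libraries, and whether DNA from microglia reached GC barcodes there was not tested. The next lowest p in the same direction belonged to chr19:61266287-61267361, with a log2 fold change of 0.60 ± 0.144 (adjusted p = 0.204). By genotype in GCs, chr11:109011269-109012361 had 0.46 ± 0.185 and chr3:5860210-5861120 had 0.26 ± 0.153. The region with the lowest microglial level, chr1:86487102-86488054, had 0.016 ± 0.136. None of these was called.

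The other regions with the lowest p values did not pass the threshold. The *Nptx2* region at 48.5 kb, chr5:144594432-144595478, had 6.36, 8.41, 9.30 and 11.2 CPM in WT and 27.2, 21.3, 15.4 and 19.1 CPM in V321L GCs. The genotypes did not overlap at this depth, and the log2 fold change was 1.24 ± 0.327 with an adjusted p of 0.301. It was 0.47 with no thinning, 0.48 thinned to 2000 counts and 0.63 with doublets kept, so its size rested on the depth and the nuclei used. The other 3 *Nptx2* regions had 0.29 to 0.47 (adjusted p from 0.632 to 0.891). The region chr9:123924708-123925812 near the chemokine receptor gene *Ccr1* had a log2 fold change of -1.03 ± 0.25 (adjusted p = 0.204), and -0.66 thinned to 2000 counts.

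No region of any gene list was called between genotypes. The GC identity regions had log2 fold changes from -0.83 to 0.39 with a median of -0.15 (26 tested). Those of the SGC-enriched list ran from -0.22 to 1.24 with a median of 0.29 (19 tested). They include *Ntng1*, a marker of GC maturation in the study, at -0.22, -0.048 and 0.18. The highest was the *Nptx2* region at 48.5 kb, which was at 0.47 with no thinning. The median over all distal regions was 0.029. The 4 *Nrg1* pathway regions lay between -0.25 and 0.35. The *Prox1* regions had log2 fold changes of -0.38, -0.040 and -0.20 (adjusted p from 0.808 to 0.984).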

How the data were processed

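The 8 Multiome libraries (1 per mouse) were deposited as matrices that hold whole-number counts of RNA UMIs per gene and of ATAC cuts per peak in the same barcodes. The authors made them with Cell Ranger on mm10, calling peaks on all nuclei of each library, and name Seurat and Signac in their processing notes. Peaks were merged across libraries, and ATAC counts were added up per merged region. The distance to a TSS was measured to the interval the files give for each gene. Nuclei with over 500 UMIs, over 250 genes, at least 500 ATAC counts and values below the upper limits the study states were kept, and those with a Scrublet score (scanpy 1.11.5) over the library mean plus 2 SD were removed as doublets. A nucleus joined a class when it had at least 3 UMIs of its markers, from at least 2 markers, and at least 2 times those of any other list. Counts were summed per mouse and class (at least 10 nuclei) and tested with edgeR 4.0.16 in R 4.3.3 (TMM, filterByExpr, quasi-likelihood test, Benjamini-Hochberg adjustment over all shared regions or genes) with the mouse as a block between classes. The sum of glia took all glial nuclei, with no limit on nuclei per class. CPM are per 1000000 counts in shared regions. For genotype, GCs were thinned to 1000 counts, and the other classes were not thinned. The scripts were tested on simulated data.

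Regions were named by a rule: per class, the 3 with the largest log2 fold change among those called with an average of at least 3 in log2 CPM that were higher in every mouse. By genotype they were those called and, as under 5 per direction were, those with the lowest p. Also named were the 5 with the most counts and those nearest to genes of 5 lists. The counts of 1 list, GABAergic regulators, are not reported here. Members and lists were chosen with earlier results of these data known. Replicate numbers do not pair the mice, and each mouse is 1 animal. By genotype, p-values rest on the spread between animals. Between classes, they rest on the spread over mice of the differences within a mouse, in edgeR over all classes of the fit. EdgeR shares information on this spread between regions, so its p-values do not rest on the spread of a single region alone. The SE is the size of the log2 fold change divided by the square root of the F value of the test. RefSeq (GRCm38.p6) start windows, genes and miRNAs were laid over the regions. Of 26259 gene symbols matched, 26251 lay on the same chromosome in both annotations. Sequences of the distal regions themselves were not used here. DESeq2 1.42.0, no filter, other depths, gates, doublets, nuclei with a count, a 50 kb limit and each mouse left out were tried as alternatives. The sum of glia, fragments in place of cuts and the paired GABAergic fit were added after the data were seen.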

Additional observations from a re-analysis of the deposited data

Results flagged for a closer look

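Of 68 groups of 4 mice, 7 had a mouse whose gap to the next was large for the range of its group, where chance flags about 1 in 20 independent groups. These groups share the same 8 mice. At the region over *Gm10222*, chr1:24612329-24613388, V321L F1 stood at 34.6 CPM in GCs at equal depth and the other V321L mice at 8.88 to 10.3 CPM. At the region near *Cr2*, chr1:195241108-195242176, V321L F2 stood at 124.3 CPM and the others at 174 to 181 CPM. At chr19:36773543-36774664, near *Ppp1r3c*, WT F2 had 31.8 CPM in GCs against 24.5 to 25.1 CPM in the other WT mice.

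At chr16:8993290-8994243, a region named for GCs, WT F2 had 66.2 CPM against 76.6 to 78.3 CPM. In oligodendrocytes, V321L M1 had 194 CPM at chr4:130539254-130540303 inside *Nkain1*, against 128 to 138 CPM, and V321L M2 had 246 CPM at chr1:190279908-190280895, 109.2 kb from *Prox1*, against 131 to 148 CPM. The distal share of counts in GABAergic neurons was 9.32% in V321L M1 and at least 11.7% in each of the other V321L mice. V321L M1 was also the mouse with the deepest ATAC library.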

How the results depend on the processing

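Counts between classes moved with most settings, and so did the number of distal regions that passed the filter and were tested. The cause was not tested. Against glia (577 higher and 61 lower of 1081 tested) no filter gave 6891 higher of 7997 and stricter gates 3322 and 28 of 4257. Doublets kept gave 870 higher of 1469, and the 50 kb limit 287 and 24 of 477. Nuclei with a count gave 21 and 27 (159 tested) and fragments 27 and 32 (201 tested). WT mice gave 245 and 9 of 888 and V321L mice 1214 higher of 1962. DESeq2 gave 95 lower of 1081, and summed glia 5818 and 279 of 7853. Against GABAergic neurons (319 higher, 63 lower) the same settings gave 4296 and 144 with no filter, 1709 and 110 with stricter gates, 500 higher with doublets kept, 169 and 33 at 50 kb, 8 and 16 for nuclei with a count, 13 and 26 for fragments, 82 and 29 in WT and 495 and 36 in V321L mice. Each of these settings tested the same number of distal regions as against glia. Thinned to 500 counts, 11 distal regions were tested in this fit and 0 were called in edgeR in any of these 4 counts. Against summed glia (5818 higher, 279 lower), thinning to 500 gave 742 and 58 (1045 tested), WT mice 3217 and 168 and the 50 kb limit 3552 and 128.

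Without 1 mouse, counts ran from 124 to 1217 higher and 45 to 63 lower than glia, with 444 to 1925 distal regions tested. With the same numbers tested they ran from 49 to 682 higher and 35 to 83 lower than GABAergic neurons. They ran from 5581 to 5927 and 249 to 286 against summed glia, and from 0 to 3 higher and 1 to 2 lower by genotype. The region over *Gm10222* (-4.27 to -2.99) was called in all 23 settings and that near *Cr2* (0.65 to 0.90) in 19. Distal regions higher in V321L GCs numbered 3 thinned to 500, 2 thinned to 2000 and 3 for fragments, and those lower numbered 2 with a stricter gate and 0 beyond 50 kb. Among regions not called, chr12:32601881-32603131 changed sign thinned to 500 (0.027) and chr1:178381842-178382789 for fragments (0.022), and the cause was not tested.

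With stricter gates the share in GCs minus other excitatory neurons was 1.68 points (exact adjusted p = 0.0844), and minus OPCs 9.79 points with 1 mouse left. Without 1 mouse these differences were 0.931 to 1.93 and 11.0 to 11.4 points, where 5 mice cannot reach an exact p under 0.0625, and the others were 8.62 to 8.97 (GABAergic neurons), 11.5 to 11.9 (astrocytes), 10.8 to 12.5 (oligodendrocytes) and 14.6 to 15.0 (microglia). The genotype difference in share was 0.288 to 0.954 points.

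Mice of the same number deviated together with correlations of -0.0043 (F1), 0.0085 (F2), 0.1286 (M1) and 0.0143 (M2), so the numbers were not taken to pair the mice. With the replicate block by genotype 1 distal region was higher and 1 lower, which changed no call. The blocked share differed by 0.56 points with V321L higher in 4 of 4 pairs (exact sign-flip p = 0.125), and 4 pairs cannot give a smaller p.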
